A study of Mus musculus with 4 samples.

Results

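The genes Ccl3, Ccl4, Ccl5 and Xcl1 encode chemokines that activated T cells and natural killer (NK) cells release. All 4 were taken by symbol from the 31053 genes of the deposited feature lists, and each was found once. Their level, and the share of their molecules held by the 5 richest cell barcodes, were followed in CD4-only T, CD8-only T and NK barcodes of 4 mouse libraries. Each library was a droplet-based single-cell RNA library made with a 5′ gene expression kit, and was counted in unique molecular identifiers (UMIs). From the pancreas, CD45-positive leukocytes were obtained by flow sorting at 12 weeks of age, and T cells carrying CD3 were taken magnetically from the pancreatic lymph node at 8 weeks. In each tissue 1 library came from Ocabfl/fl females, the control, and 1 from Ocabfl/fl.CD4-Cre females. All donors were pre-diabetic females with floxed Ocab alleles, and the strain background is not given in the sources used here. Cre under control of Cd4 sequences is active in the thymus before CD4 and CD8 lineages part, so that both T cell lineages can lose the gene, whereas NK and B cells are not its targets. Ocab is an older name of Pou2af1, which encodes a transcriptional coactivator best known from B cells. Cells of 4 mice were pooled in each pancreas library and of 5 mice in each node library, so differences below compare libraries and have no replicate check.

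Chemokines are small secreted proteins that direct the migration of leukocytes through G protein-coupled receptors. Ccl3 (MIP-1 alpha), Ccl4 (MIP-1 beta) and Ccl5 (RANTES) belong to the CC family, and Ccl3 and Ccl5 bind Ccr1. They draw monocytes, macrophages and activated T cells to inflamed tissue. Xcl1 (lymphotactin) binds Xcr1, a receptor of the cross-presenting dendritic cells called cDC1. Memory and effector CD8 T cells keep a store of Ccl5 transcripts, while Ccl3, Ccl4 and Xcl1 are made in short bursts after stimulation. In autoimmune diabetes these ligands are among the signals studied in the recruitment of leukocytes to the islets.

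The libraries listed between 3059 and 6963 barcodes with 14851217 to 32798133 UMIs, and between 2843 and 6238 barcodes were kept. Any pair of libraries shared 15 to 55 kept barcode sequences. T barcodes held at least 2 UMIs of Cd3d, Cd3e and Cd3g, and CD4-only and CD8-only barcodes held UMIs of Cd4 or of Cd8a and Cd8b1 but not of both. NK barcodes held at least 2 UMIs of Ncr1, Klrb1c, Klre1 and Klri2 and at most 1 of the Cd3 genes and Trac. The CD4 gate held 878 barcodes in pancreas control, 2012 in pancreas CD4-Cre, 1274 in node control and 2650 in node CD4-Cre. The CD8 gate held 431, 674, 697 and 1508 in that order. The NK gate held 198 and 259 barcodes in the pancreas, and 2 and 0 in the nodes, where cells had been selected for CD3. Markers that the gates did not use matched the names only in part. Fcer1g, a signalling chain of NK cells, was detected in 100% and 99.6% of pancreas NK barcodes, and Cd40lg in 41.1% and 41.5% of the CD4 gate. A UMI of the gamma-delta receptor genes Trdc, Trgv2 or Tcrg-C1 was in 40.4% and 33.2% of pancreas NK barcodes. The same genes had a UMI in 35.5% and 23.4% of the pancreas CD8 gate. A gene of the NK gate (Ncr1, Klrb1c, Klre1 or Klri2) had a UMI in 20.2% and 13.2% of the pancreas CD8 gate. Lck, a T and NK cell kinase, was detected in 94% and 94.7% of the CD8 gate and Cd5, a T cell marker, in 42.9% and 45.7%, against 0.505% and 0.386% of the NK gate. Of 5 innate lymphoid markers checked in the NK gate, Gata3 was detected in 30.8% and 30.5%, Itga1 in 22.2% and 20.5%, Tmem176a in 11.6% and 12.7%, Rora in 11.1% and 17%, and Il1rl1 in none. The targeted gene Pou2af1 had 23 UMIs in the pancreas CD4 gate of the control and 4 in that of CD4-Cre, 39 and 0 in the node CD4 gates, 6 and 0 in the pancreas CD8 gates and 13 and 0 in the node CD8 gates.

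Ccl3, Ccl4 and Ccl5 lie together on chromosome 11 and Xcl1 lies alone on chromosome 1 (GENCODE M21, GRCm38). Ccl3 (ENSMUSG00000000982) spans 83647844 to 83649355 on the minus strand, and Ccl4 (ENSMUSG00000018930) spans 83662584 to 83664683 on the plus strand, with 13228 bases between them. Ccl5 (ENSMUSG00000035042) spans 83525778 to 83530518 on the minus strand. Xcl1 (ENSMUSG00000026573) spans 164931644 to 164935527 of chromosome 1 on the minus strand, where the noncoding gene Gm20743 overlaps it on the other strand. Each of the 4 is protein-coding with 3 exons. No stretch of 60 bases of their longest coding transcripts, of 523 to 766 bases, occurred in a transcript of another gene, so reads of that length could be told apart between members. The bases before the transcription starts of Ccl3 and Xcl1 are shown because a 5′ kit reads transcripts from that end, and because the table of promoters held an entry for these members. The sequences come from RefSeq (GRCm38.p6), cover the 250 bases before the annotated start, and are written 5′ to 3′ on the gene's strand. The Ccl3 window is chr11:83649379-83649628 and the Xcl1 window is chr1:164935523-164935772, both on the minus strand. Capitals mark matches to 6 short motifs searched on both strands: TGANTCA (AP-1), GGAAA (NFAT core), TGTGGT (Runx), TATAAA (the letters of a TATA box), the box CCAAT and TGACGTCA (CRE).
Ccl3: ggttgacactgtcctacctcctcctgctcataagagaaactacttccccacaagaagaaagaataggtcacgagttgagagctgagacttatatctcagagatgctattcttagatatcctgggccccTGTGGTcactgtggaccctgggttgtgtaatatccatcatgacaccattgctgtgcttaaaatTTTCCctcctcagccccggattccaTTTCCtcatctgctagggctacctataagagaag
Xcl1: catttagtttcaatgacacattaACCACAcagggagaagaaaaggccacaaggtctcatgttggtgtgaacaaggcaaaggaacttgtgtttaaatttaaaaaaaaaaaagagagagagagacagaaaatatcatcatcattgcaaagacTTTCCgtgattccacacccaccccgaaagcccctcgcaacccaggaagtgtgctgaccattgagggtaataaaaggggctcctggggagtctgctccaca
The Ccl3 window held 1 match to the Runx letters, starting 122 bases before the start, and 2 to the NFAT letters at 59 and 34 bases, both of these on the opposite strand. The Xcl1 window held 1 Runx match at 227 bases and 1 NFAT match at 100 bases, both on the opposite strand. Over all 32851 windows of this length in the table, 14% held the Runx letters and 55.6% the NFAT letters. The other 4 motifs had no match in either window, and were found in 6.75% (AP-1), 12.4% (TATA box), 33.8% (CCAAT) and 1.55% (CRE) of all windows.

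Every member had its highest summed level in NK barcodes of the pancreas, a lower one in CD8 and the lowest of the 3 in CD4 barcodes, in both genotypes. Levels are CPM, the UMIs of a gene per 1e6 UMIs of the gate. Ccl3 measured 251 CPM in NK, 48.7 in CD8 and 18.9 in CD4 barcodes of the pancreas control, and 190, 79 and 12.1 CPM in pancreas CD4-Cre. Ccl4 measured 1510, 413 and 123 CPM in the control and 704, 260 and 69.3 in CD4-Cre. Xcl1, the ligand of cDC1, measured 872, 282 and 27.7 CPM in the control and 651, 327 and 20.9 in CD4-Cre. Ccl5 differed from the other members in the step that separated its gates. It measured 18464 CPM in NK and 16690 in CD8 barcodes of the control, a log2 ratio of 0.15 (95% interval 0.12 to 0.17), while the CD4 gate stood at 851 CPM, a log2 ratio of CD8 over CD4 of 4.29 (4.24 to 4.35). The CD4-Cre gates had 13227 CPM of Ccl5 in NK, 9313 in CD8 and 640 in CD4 barcodes. The NK over CD8 step was larger for the other 3: log2 ratios of 2.36 for Ccl3, 1.87 for Ccl4 and 1.63 for Xcl1 in the control, and 1.27, 1.44 and 0.99 in CD4-Cre. Without the 5 richest barcodes of each gate those of Xcl1 were 2.05 and 2.12, those of Ccl3 2.33 and 2.37 and those of Ccl4 1.52 and 1.67. A gene was counted as past the fold when its log2 ratio was at least 0.58 in size and its counting interval left out 0. By that rule 3 of 4 members stood higher in NK than in CD8 barcodes in both libraries, where 15.1% (control) and 16.9% (CD4-Cre) of the genes with at least 50 UMIs did. All 4 stood higher in CD8 than in CD4 barcodes in both libraries, against 7.4% and 7.25% of genes. Intervals cover counting error only, and UMIs of 1 barcode are not independent of each other.

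**Figure D1:**
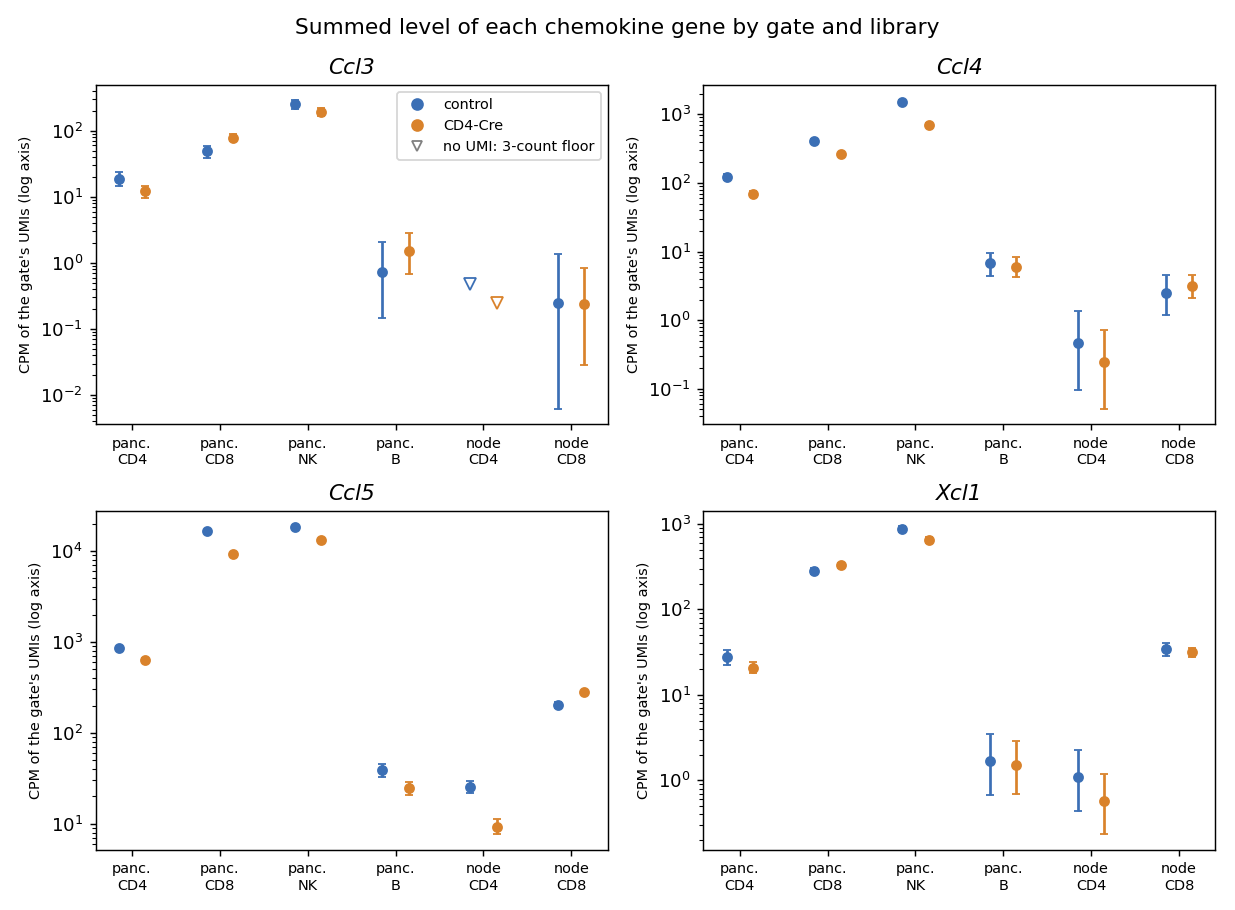
Summed level of each gene (CPM, log axis) in the pancreas CD4, CD8, NK and B gates and the node CD4 and CD8 gates, for control (blue) and CD4-Cre (orange); bars are exact Poisson 95% intervals and open triangles mark the 3-count floor of a gate with no UMI. Every gene peaks in the pancreas NK gate, from 190 CPM for Ccl3 in CD4-Cre to 18464 CPM for Ccl5 in control, and the node gates lie far lower.

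How many barcodes carried each gene was compared after thinning every barcode to 1000 UMIs, because the gates differ in depth (median 3450 to 3999 UMIs per barcode in the pancreas T and NK gates). Ccl5 was close to universal in NK barcodes, found in 97.4% of control (95% Clopper-Pearson interval 94.1 to 99.2) and 97.7% of CD4-Cre (95 to 99.1). It was found in 69.2% (64.6 to 73.6) and 44.6% (40.8 to 48.5) of CD8 barcodes, and in 9.71% and 7.13% of CD4 barcodes. Xcl1 was found in 40.3% and 39.5% of NK, 8.16% and 5.8% of CD8, and 0.343% and 0.498% of CD4 barcodes. Ccl4 was found in 38.3% and 31.4% of NK and in 19.8% and 8.78% of CD8 barcodes, and Ccl3 in 18.9% and 16.7% of NK and 4.66% and 2.83% of CD8 barcodes. Without thinning the CD8 shares were 72.4% and 49.3% for Ccl5, 39.4% and 17.7% for Ccl4, 16.7% and 14.1% for Xcl1, and 11.4% and 6.53% for Ccl3. B barcodes, at median depths of 3574.5 and 3440 UMIs, were taken as a background, without a check that B cells lack these genes. There, Ccl5 was found in 1.3% and 1.19% after thinning, Ccl4 in 0.109% and 0.222%, Ccl3 in 0.109% and 0.148%, and Xcl1 in 0 of 921 control barcodes (an upper limit of 0.4%) and 0.0741% of CD4-Cre barcodes. In B barcodes the Ccl5 level was 38.8 and 24.5 CPM, a log2 ratio of CD4-Cre over control of -0.66. In that gate 2.11% of genes were lower and 3.4% higher. The top 5 B barcodes held 85.8% of the 162 control and 78.8% of the 146 CD4-Cre Ccl5 UMIs, so this ratio rests on few barcodes. The NK and CD8 shares of every member stood above the shares of B barcodes. The CD4 shares of Xcl1, from 3 and 10 barcodes, had intervals (0.0708% to 0.999%, and 0.239% to 0.914%) that overlapped those of B barcodes. So did the CD4 shares of Ccl3, 0.686% (0.252 to 1.49) and 0.648% (0.345 to 1.11), and that of Ccl4 in CD4-Cre, 0.747% (0.419 to 1.23), while Ccl4 in control CD4 barcodes was at 1.49% (0.793 to 2.53). At this depth those overlapping shares were not read as expression by CD4 barcodes as a group.

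**Figure D2:**
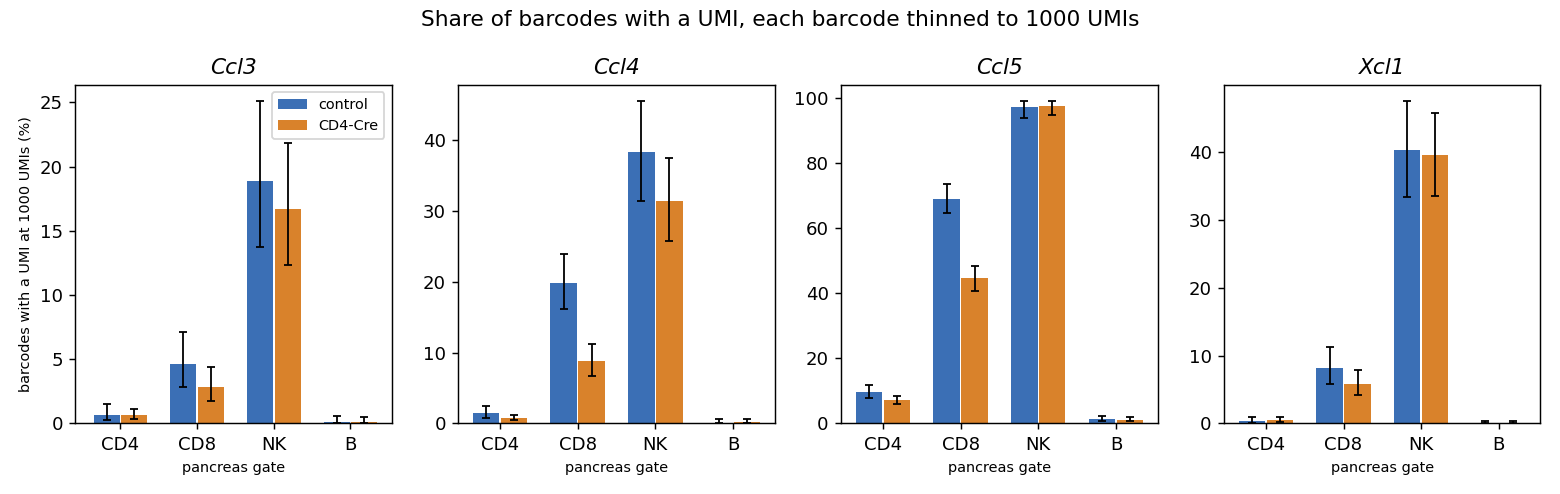
Percent of barcodes with at least 1 UMI of each gene in the pancreas CD4, CD8, NK and B gates after thinning to 1000 UMIs; bars in blue are control, in orange CD4-Cre, and error bars are Clopper-Pearson 95% intervals (counting error only). Ccl5 is in nearly all NK barcodes of both libraries, and in 69.2% and 44.6% of CD8 barcodes.

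The members also differed in how evenly their UMIs were spread. In pancreas CD8 barcodes the 5 richest held 6.59% of Ccl5 UMIs in control and 6.29% in CD4-Cre, and 50% of all Ccl5 UMIs took 64 and 62 barcodes. Ccl5 was thus a property of many cells there. For Ccl4 the top 5 held 31.8% and 35.8%, for Xcl1 45.4% and 62%, and for Ccl3 29.8% and 65.2%. In NK barcodes the top 5 held 11.5% and 7.47% of Ccl5, 27.6% and 17.2% of Xcl1, 32.5% and 25.5% of Ccl3, and 47.1% and 25.2% of Ccl4. CD4 barcodes were the extreme. Their top 5 held 90.6% and 69.9% of Ccl3, 86.6% and 86% of Ccl4, and 83% and 70.8% of Xcl1, but only 22.7% and 17.6% of Ccl5. With all barcodes thinned to 1000 UMIs, Xcl1 in CD8 barcodes went from 62% to 39.7% in CD4-Cre and from 45.4% to 52.3% in control, while Ccl3 there stood at 57.5% and 40%. In CD4 barcodes the sums of Ccl3, Ccl4 and Xcl1 therefore rest on a handful of barcodes, as do those of Ccl3 and Xcl1 in the CD8 gate of CD4-Cre. In the CD8 gate 50% of Ccl3 UMIs took 12 barcodes in control and 4 in CD4-Cre. For Xcl1, 50% took 7 and 2 barcodes. After thinning, the top 5 share of Xcl1 in CD8 barcodes was the larger in control.

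**Figure D3:**
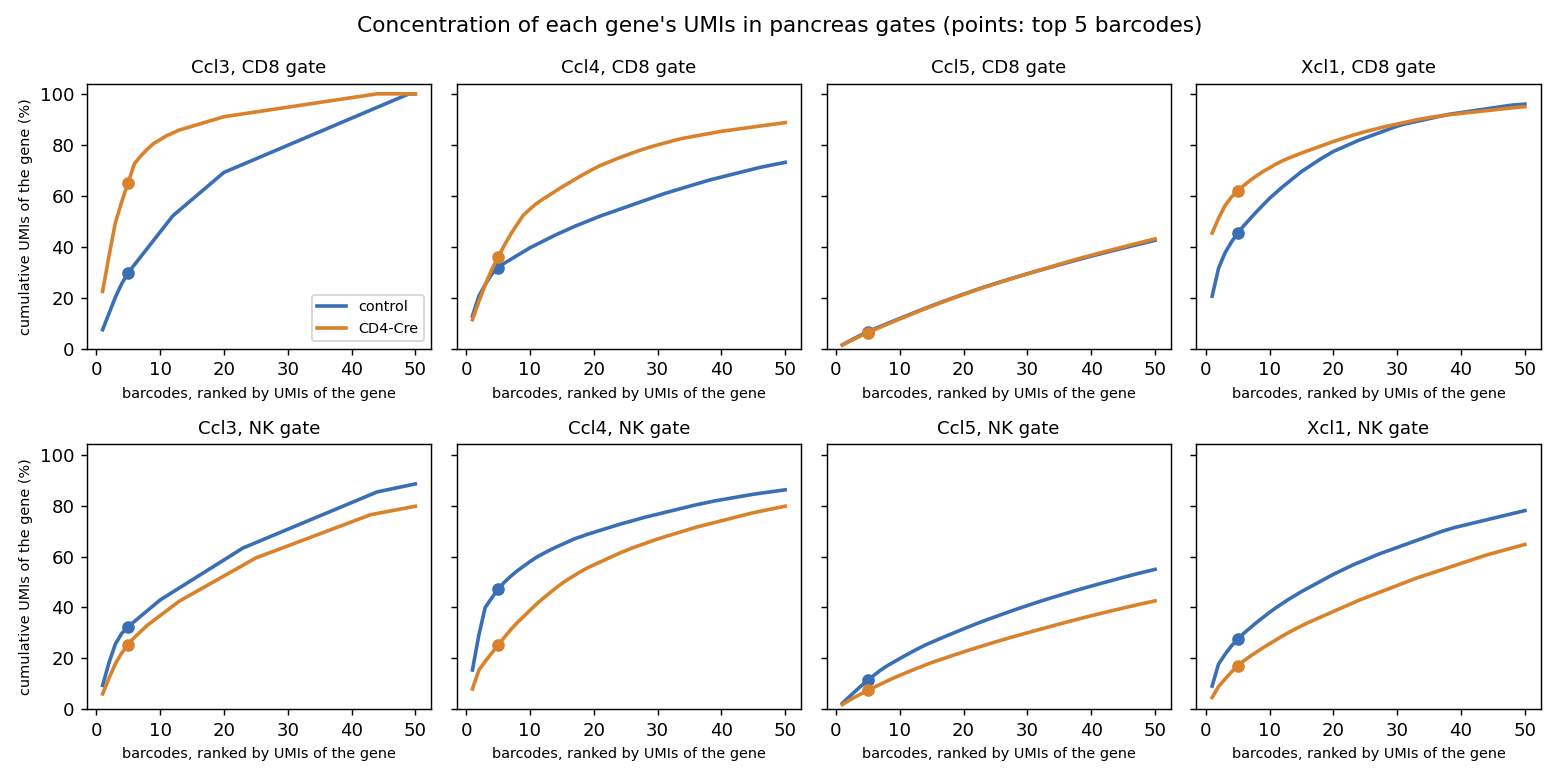
Cumulative percent of a gene's UMIs against barcodes ranked by their UMIs of that gene, for the pancreas CD8 gate (top row) and NK gate (bottom row), control in blue and CD4-Cre in orange; the point marks the top 5 barcodes. The Ccl5 curves of the CD8 gate overlie each other at 6.59% and 6.29%, whereas the Ccl3 curves stand at 29.8% and 65.2%.

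Ccl5, which effector and memory CD8 T cells hold in store, was lower in the CD8 gate of pancreas CD4-Cre. The control gate measured 16690 CPM (32190 UMIs) and the CD4-Cre gate 9313 CPM (31472 UMIs). The log2 ratio was -0.84 (-0.86 to -0.82), or 0.558 times the control level. Most of the gap lay in how many barcodes carried the gene: 69.2% against 44.6% after thinning, with a mean of 27.4 and 22.8 UMIs in barcodes that had any. The median CD8 barcode held 11150 CPM of Ccl5 in control and 0 in CD4-Cre, and the 75th percentile was 30830 and 13655 CPM. By the fold rule 3.9% of genes were lower and 3.45% higher in CD4-Cre in this gate, and 2 of the 4 members (Ccl4 and Ccl5) were lower, 1 (Ccl3) higher and 1 (Xcl1) in neither class. The makeup of the gate moved with the level. Ccr7, the lymph node homing receptor, was higher in CD4-Cre, at 144 and 286 CPM (log2 ratio 0.99), and its part in the Ccl5 level was not tested. Barcodes with a UMI of an NK gene (Ncr1, Klrb1c, Klre1 or Klri2) were 20.2% and 13.2% of the gate, and without them (chosen after seeing the data) the log2 ratio was -0.80. Barcodes with a UMI of the gamma-delta receptor genes Trdc, Trgv2 or Tcrg-C1 were 35.5% and 23.4%, and without them it was -1.0. Leaving out the 5 richest Ccl5 barcodes of each library left it at the reported value.

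Ccl3 and Ccl4, which are usually made together after stimulation, parted in the CD8 gate. Ccl4 was lower in CD4-Cre, at 413 CPM (796 UMIs) against 260 CPM (877 UMIs), a log2 ratio of -0.67 (-0.81 to -0.53). Without the 5 richest barcodes of each library it was -0.76, and without barcodes that had gamma-delta receptor UMIs it was -0.26. Ccl3 was higher, at 48.7 CPM (94 UMIs) against 79 CPM (267 UMIs), a log2 ratio of 0.70 (0.35 to 1.05). Yet fewer CD4-Cre barcodes carried Ccl3: 44 of 674 (6.53%) against 49 of 431 (11.4%). The 5 richest control barcodes held 7, 6, 6, 5 and 4 Ccl3 UMIs, and the 5 richest in CD4-Cre held 60, 37, 35, 22 and 20. Without those 5 in each library the log2 ratio turned to -0.31 (-0.79 to 0.16). It was 0.10 without doublet removal and 0.07 over all listed barcodes, so the Ccl3 difference past the fold held under some of these choices only. Without gamma-delta receptor UMIs it was 1.88. In each of the 5 CD4-Cre barcodes the T-cell receptor beta segment with the most UMIs was Trbv15, and so it was in 4 of the 5 richest for Ccl4. These 5 Ccl3 barcodes were also deep, with 6033 to 19972 UMIs where the gate's median was 3999.

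Trbv15 barcodes were 77 of 674 (11.4%) in the CD8 gate of CD4-Cre and 9 of 431 (2.09%) in control. The segment was singled out because the barcodes richest in Ccl3 carried it, so its Ccl3 level is a description of those barcodes and no separate support. The 77 held 83.5% of Ccl3 UMIs, 53.5% of Ccl4, 31.9% of Ccl5 and 7.87% of Xcl1. Within the 77, the top 5 barcodes held 78% of the Ccl3 UMIs, 65.9% of Ccl4 and 18.3% of Ccl5, which the counting intervals do not cover. In the 77 barcodes Ccl3 measured 555 CPM (484 to 633). It measured 14.9 CPM (10.8 to 20) in CD4-Cre barcodes with another Trbv segment and 47.3 CPM (37.8 to 58.5) in control barcodes with another segment. Ccl4 followed the same order, at 1167, 139 and 422 CPM. Ccl5 measured 24962 CPM in the Trbv15 barcodes, 7166 CPM in other CD4-Cre and 16583 CPM in other control barcodes. Xcl1 did not: it measured 216, 352 and 298 CPM. In CD4-Cre, Ccl3 was detected in 22.1% of Trbv15 barcodes (13.4 to 33) and in 4.52% of those with another segment (2.97 to 6.56). Their median depths were 4331 and 4060 UMIs. The 9 control Trbv15 barcodes had no Ccl3 UMI (0 to 81.2 CPM). They measured 176 CPM of Ccl4, 10352 of Ccl5 and 110 of Xcl1, each below the control barcodes with another segment. Ccl4 was still detected in 55.6% of the 9, against 38.3%. The high levels were thus seen in Trbv15 barcodes of CD4-Cre only, and 9 barcodes are few. In the control the Trbv13-3 barcodes, 69 or 16% of the gate, had higher summed levels than barcodes with neither segment. Ccl3 measured 140 CPM there and was detected in 23.2%, Ccl4 measured 895 CPM and Ccl5 31413 CPM. Control barcodes with neither segment measured 31.3, 341 and 14035 CPM. Xcl1, unlike in the Trbv15 barcodes of CD4-Cre, was also higher, at 577 against 250 CPM, but was detected in 15.9% against 17.5%. The top 5 of the 69 held 59.5% of their Ccl3 UMIs, 49.2% of Ccl4, 22.8% of Ccl5 and 95.4% of Xcl1. In CD4-Cre the 60 Trbv13-3 barcodes (8.9%) measured 13.4 CPM of Ccl3, 342 of Ccl4, 9021 of Ccl5 and 224 of Xcl1. Barcodes of CD4-Cre with neither segment measured 15.1, 109, 6890 and 371 CPM. Without Trbv15 barcodes the CD4-Cre over control log2 ratio was -1.76 (-2.31 to -1.22) for Ccl3, -1.61 for Ccl4 and -1.23 for Ccl5, a setting chosen after seeing the data that leaves the Trbv13-3 barcodes in. It takes out 83.5% of the CD4-Cre Ccl3 UMIs and none of the control's, so the fall for Ccl3 follows from how the segment was chosen. Without both segments the log2 ratio was -1.23 (-1.86 to -0.62) for Ccl3, -1.66 for Ccl4, -1.06 for Ccl5 and 0.59 for Xcl1, also chosen after seeing the data. Among the 77, the alpha segment with the most UMIs was Trav8n-2 in 46 and Trav6-1 in 8. The 8 Trav6-1 barcodes held 139 Ccl3 UMIs, from 4 barcodes, and the 46 with Trav8n-2 held 84, from 13. Since 4 mice were pooled, these barcodes cannot be assigned to 1 animal or to several. In the CD4 gate Trbv15 was the main segment in 8.31% of control and 7.41% of CD4-Cre barcodes.

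**Figure D4:**
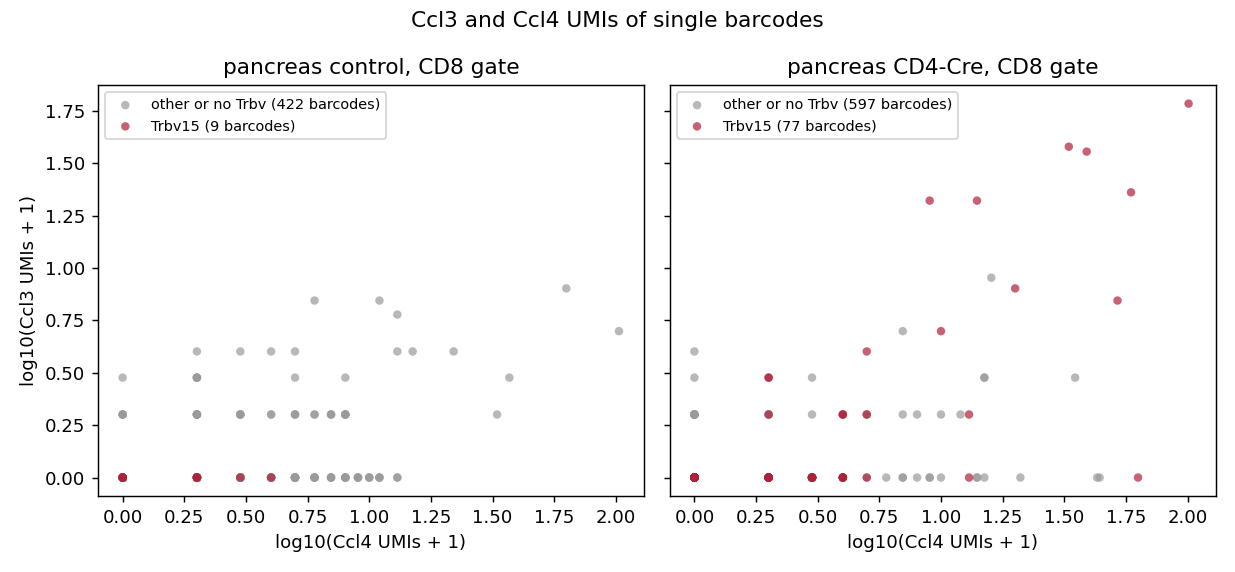
Ccl3 against Ccl4 UMIs of single barcodes in the pancreas CD8 gate, both as log10(UMIs + 1), for control (left, 431 barcodes) and CD4-Cre (right, 674); red points are barcodes whose main beta segment is Trbv15 (9 and 77). The CD4-Cre barcodes richest in Ccl3 are Trbv15 barcodes with up to 60 UMIs, while no control barcode passes 7.

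Xcl1 did not pass the fold in the CD8 gate. It measured 282 CPM (544 UMIs) in control and 327 CPM (1106 UMIs) in CD4-Cre, for a log2 ratio of 0.21 (0.07 to 0.37). A single CD4-Cre barcode held 502 of the 1106 UMIs, and the next held 63, 55, 37 and 29; the control's richest held 112, 59, 33, 23 and 20. That barcode, with 39974 UMIs in all, also held 51 UMIs of Tnfrsf9 (4-1BB), a costimulatory receptor of activated T cells, and none of Ccl3, Ccl4 or Ccl5. Without the richest barcode of each library the log2 ratio was -0.31, and with equal weight for every barcode it was -0.82. The share of barcodes with Xcl1 was 8.16% and 5.8% after thinning, with overlapping intervals (5.75 to 11.2, and 4.16 to 7.85). No direction for Xcl1 in CD8 barcodes was stable over these settings.

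In NK barcodes, which CD4-Cre does not target, all 4 members had lower levels in CD4-Cre, and 1 passed the fold. Ccl4 measured 1510 CPM (1150 UMIs) in control and 704 CPM (785 UMIs) in CD4-Cre, for a log2 ratio of -1.10 (-1.23 to -0.97). Its richest control barcodes held 178, 157, 125, 42 and 40 UMIs, against 63, 58, 27, 25 and 25 in CD4-Cre. Without the top 5 of each library the ratio was -0.60, and the share of barcodes with Ccl4 after thinning was 38.3% (31.4 to 45.5) and 31.4% (25.8 to 37.4). Ccl5 measured 18464 and 13227 CPM, a log2 ratio of -0.48 (-0.51 to -0.45), with nearly equal shares of carrying barcodes but a mean of 19.4 and 14.7 UMIs in them. The median NK barcode held 15615 and 12673 CPM of Ccl5. Ccl3 measured 251 and 190 CPM, a log2 ratio of -0.40 (-0.69 to -0.11), and Xcl1 measured 872 and 651 CPM, a log2 ratio of -0.42 (-0.57 to -0.27). By the fold rule 2.53% of genes were lower and 2.78% higher in this gate. The 8 genes of a cytotoxic and cytokine list with at least 20 UMIs had a median log2 ratio of -0.14 and none passed the fold, for example Gzma, a granzyme, at 10953 and 9570 CPM, and Prf1, perforin, at 918 and 874 CPM. Of 7 receptor-signal genes, Nr4a1 (59.1 and 33.2 CPM, log2 ratio -0.83) and Nr4a3 (23.6 and 10.8 CPM, -1.13) were lower and none higher, with a list median of -0.53. Of 7 genes of a dissociation-stress list, Jun and Fosb were lower. Over all genes with at least 20 UMIs in this gate, 2.86% were lower and 2.75% higher, with a median of 0.03. Fosb, an AP-1 subunit, measured 101 and 44.8 CPM, and its part in the chemokine levels was not tested.

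In CD4 barcodes the summed levels of Ccl3 and Ccl4 passed the fold on few cells. After thinning, the intervals of their shares overlapped those of B barcodes, except for Ccl4 in control, which stood above. Without thinning, the CD4-Cre share of Ccl3 was 1.14% (0.726 to 1.71) against 0.221% (0.0456 to 0.645) in B barcodes. That of Ccl4 was 1.64% (1.13 to 2.3) against 0.516% (0.208 to 1.06). The unthinned control intervals of both genes overlapped those of B barcodes. For Xcl1 the unthinned CD4 shares stood above those of B barcodes in both libraries. They were 1.59% (0.874 to 2.66) against 0.108% (0.00273 to 0.6) in control. In CD4-Cre they were 1.24% (0.806 to 1.83) against 0.147% (0.0179 to 0.531). Ccl4 measured 123 CPM (417 UMIs) in control and 69.3 CPM (534 UMIs) in CD4-Cre, for a log2 ratio of -0.83 (-1.01 to -0.64), where 2.44% of genes were lower and 1.62% higher. One control barcode alone held 238 of the 417 UMIs, and the richest CD4-Cre barcodes held 186, 97 and 93. Without the richest barcode of each library the Ccl4 ratio was -0.23 (-0.49 to 0.04) and with equal weight per barcode -0.42. Ccl3 measured 18.9 CPM (64 UMIs) and 12.1 CPM (93 UMIs), a log2 ratio of -0.64 (-1.12 to -0.16), and the same control barcode held 36 of the 64. Without the richest barcode of each library the Ccl3 ratio turned to 0.18 (-0.47 to 0.86). The 3 CD4-Cre barcodes richest in Ccl4 carried 8, 27 and 10 UMIs of Nr4a1 and 11, 3 and 7 of Egr2, genes induced by receptor signalling. Each of these 3 also ranked among the 3 richest for Ccl3. The next CD4-Cre barcodes, with 55 and 28 Ccl4 UMIs, carried 1 and 0 of Nr4a1 and 0 and 1 of Egr2. The control barcode with 238 Ccl4 UMIs carried 1 of Nr4a1 and 2 of Egr2. A link of these genes to the chemokine levels was not tested. Ccl5 measured 851 and 640 CPM (log2 ratio -0.41, -0.48 to -0.34) and Xcl1 measured 27.7 and 20.9 CPM (-0.41, -0.78 to -0.02), and neither passed the fold. Xcl1 turned to 0.36 (-0.48 to 1.28) without the 5 richest barcodes of each library. Barcodes with a UMI of Foxp3, the regulatory T cell factor, were 7.29% and 6.36% of the gate and held 15.8% and 8.33% of its Ccl5.

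The nodes held far less of every member. In node CD8 barcodes Ccl3 had 1 and 2 UMIs, below or at the 3-count floor of 0.739 and 0.352 CPM, and Ccl4 had 10 and 27 UMIs (2.46 and 3.17 CPM). Xcl1 measured 34 CPM (138 UMIs) in control and 31.8 CPM (271 UMIs) in CD4-Cre, for a log2 ratio of -0.10 (-0.40 to 0.21), which became 0.79 (0.29 to 1.32) without the 5 richest barcodes of each library. Ccl5 measured 202 CPM (819 UMIs) and 280 CPM (2387 UMIs), a log2 ratio of 0.47 (0.36 to 0.59), short of the fold by CPM and at 0.59 with DESeq2 size factors, which moved all genes of this gate up by 0.11. The richest node control barcodes held 227, 100, 75, 74 and 54 Ccl5 UMIs and those of CD4-Cre 221, 194, 181, 133 and 129. The top 5 thus held 64.7% and 35.9%, and without them the ratio was 1.33 (1.14 to 1.51), and 0.80 without the single richest. In this gate 0.475% of genes were higher and 4.47% lower in CD4-Cre. Node CD4 barcodes held 0 Ccl3 UMIs in both libraries, 3 and 3 of Ccl4 and 7 and 7 of Xcl1. Their Ccl5 measured 25.6 CPM (163 UMIs) and 9.3 CPM (112 UMIs), a log2 ratio of -1.46 (-1.82 to -1.11), where 3.91% of genes were lower and 0.633% higher. That direction turned to 0.11 (-0.49 to 0.74) when CD4-only barcodes needed 2 Cd4 UMIs. It was -0.95 without the richest barcode of each library, which held 71 UMIs in control and 22 in CD4-Cre. Ccl5 stood higher in node CD8 than in node CD4 barcodes, with log2 ratios of 2.98 in control and 4.91 in CD4-Cre, as did 3.5% and 3.6% of genes. Xcl1 did too, at 4.95 and 5.77. Pancreas and node differ in age, cell selection and tissue together, and these cannot be told apart in a difference between their levels.

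The members differed in the company they kept within single barcodes. In pancreas CD8 barcodes thinned to 1000 UMIs, all 20 control and all 19 CD4-Cre barcodes with Ccl3 also had Ccl5, as did 85 of 85 and 54 of 59 barcodes with Ccl4. Ccl4 was found in 55% and 57.9% of barcodes with Ccl3, against 18.1% and 7.35% of those without it. Xcl1 was found in 9.41% and 15.3% of barcodes with Ccl4, against 7.85% and 4.89% of those without, in 25% and 10.5% of the few barcodes with Ccl3, against 7.33% and 5.67%, and in 9.76% and 9% of barcodes with Ccl5, against 4.55% and 3.23%. Over the barcodes of this gate (431 and 674), the Pearson r of log-scaled counts, averaged over both libraries, was 0.48 for Ccl3 with Ccl4, 0.48 for Ccl4 with Ccl5 and 0.07 for Ccl5 with Xcl1. The genes most like Ccl5 were Nkg7, a granule membrane gene (0.71), S100a6 (0.69), the granzyme Gzmk (0.62), the galectin Lgals1 (0.59) and AW112010 (0.55). Those most like Xcl1 were Fcer1g (0.38), Tnfrsf9 (0.34), the NK receptor gene Ncr1 (0.32), Cd160 (0.32) and Ctsw (0.26). Points of a library share its depth range and cell mixture, and these values carry no p.

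In NK barcodes (198 and 259) Ccl5 and Xcl1 ran in opposite directions, with r of -0.37 in control and -0.35 in CD4-Cre. Ccl5 was most like Gzma (0.56), Tyrobp, an adaptor of activating receptors (0.47), Klf2, a factor of circulating lymphocytes (0.38), the protease gene Cma1 (0.37) and Prf1 (0.37). Xcl1 was most like Cxcr6, a receptor of tissue lymphocytes (0.42), Tmem176b (0.38), Ramp1 (0.37), Cxcr3 (0.35) and Ltb (0.33). The gate did not separate NK cells from other innate lymphoid cells, whose markers it held in part. Ccl3 was most like Ccl4 (0.40), and Ccl4 after Ccl3 was most like Jund (0.30) and Gzmb (0.30). Over the 18 gate and library points with at least 30 barcodes, the r of log2(CPM + 1) was 0.98 for Ccl3 with Ccl4. There Ccl5 was most like Klrk1 (0.95), the NKG2D receptor, and Xcl1 most like Ctla2a (0.98). These points share libraries.

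Receptors of Ccl3, Ccl5 and Xcl1 were found in the myeloid and cDC1 gates of the same pancreas libraries. Ccr1, which binds Ccl3 and Ccl5, measured 135 CPM in control and 86.4 CPM in CD4-Cre myeloid barcodes. This myeloid gate did not leave out NK barcodes. Of its 537 control barcodes 65 were also in the NK gate, and of its 507 CD4-Cre barcodes 99 were. Xcr1, the receptor of Xcl1, measured 151 and 197 CPM in the 58 and 83 cDC1 barcodes, gated on Clec9a, and was detected in 48.3% and 54.2% of them.

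Of the genes that accompany these chemokines, 4 of 9 cytotoxic and cytokine genes with at least 20 UMIs were lower and none higher in the CD8 gate of pancreas CD4-Cre, with a median log2 ratio of -0.48 where the median of all genes was 0. Over all genes with at least 20 UMIs in this gate, 4.17% were lower and 3.69% higher. The 4 lower genes of the cytotoxic and cytokine list were Gzma (1344 and 445 CPM, -1.59), Fasl (135 and 68.7 CPM, -0.97), Gzmb (193 and 107 CPM, -0.86) and the cytokine gene Ifng (102 and 66.9 CPM, -0.61). Of 12 regulators, Zeb2 (44.1 and 10.7 CPM, -2.05) and Tbx21, which encodes T-bet (76.2 and 43.5 CPM, -0.81), were lower and Irf8 (20.2 and 57.7 CPM, 1.51) was higher. Of 8 receptor-signal genes, Nr4a1 (-1.27) and Nr4a3 (-0.85) were lower and Tnfrsf9 (1.15) was higher. The Tnfrsf9 sum leaned on 2 CD4-Cre barcodes, with 51 and 26 of its 198 UMIs, and without the 2 richest barcodes of each library it was 20.3 and 36.5 CPM (0.84, 0.31 to 1.40), a setting chosen after seeing the data. Of 7 other chemokine genes with at least 20 UMIs, Ccl1, Ccl22 and Cxcl16 were higher and Cxcl10 lower, and all 126 UMIs of Cxcl9 (37.3 CPM) came from CD4-Cre. The Ccl22, Cxcl16 and Cxcl9 sums lay in few barcodes: 5 CD4-Cre CD8 barcodes with 10 or more UMIs of H2-Ab1, a class II gene of antigen-presenting cells, held 88 of 89 Ccl22, 61 of 75 Cxcl16, all 126 Cxcl9 and 474 of 495 H2-Ab1 UMIs, and control had no such barcode. Those 5 held 0 Ccl3, 3 Ccl4, 523 Ccl5 and 7 Xcl1 UMIs, and without them the Ccl5 ratio was -0.82.

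**Figure D5:**
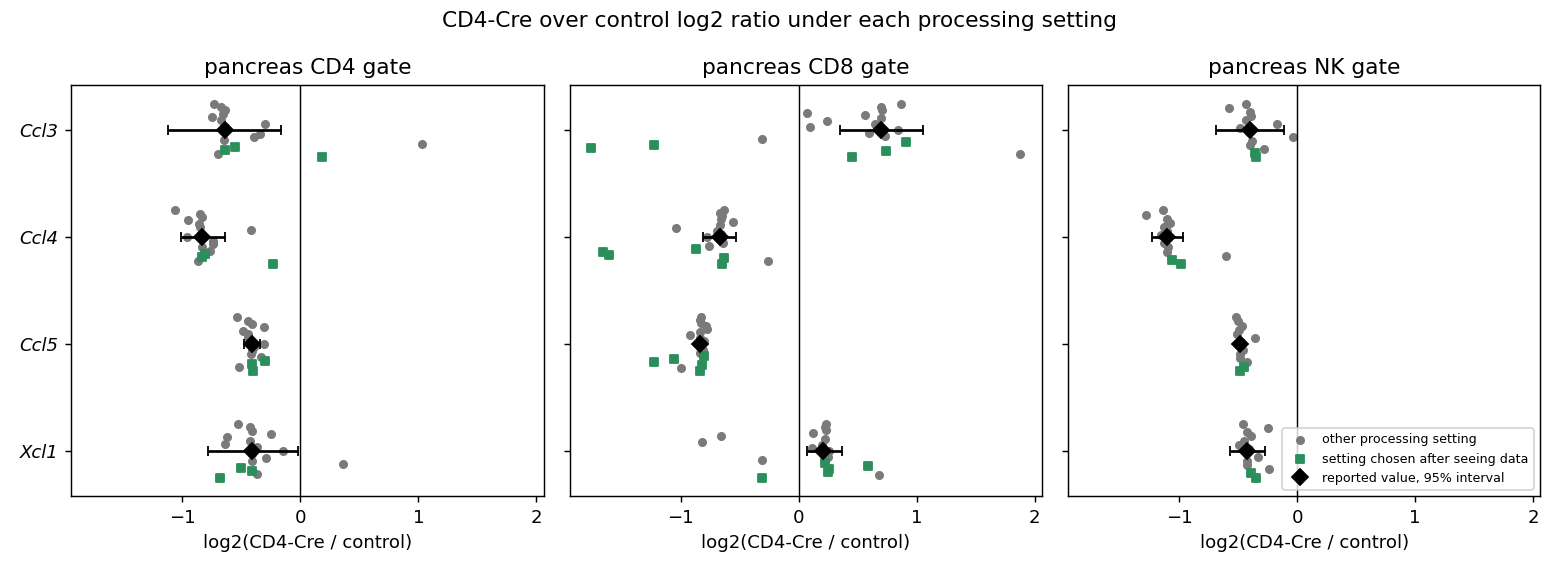
CD4-Cre over control log2 ratio of each gene in the pancreas CD4, CD8 and NK gates; diamonds are the reported values with 95% counting intervals, grey points other processing settings and green squares settings chosen after seeing the data. In the NK gate every value lies below 0, whereas Ccl3 in the CD8 gate runs from -1.76 to 1.88. The lowest of these is the setting without Trbv15 barcodes, chosen after seeing the data.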

How the data were processed

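The authors deposited, per the file headers and contents, whole-number UMI counts per gene and barcode for 4 libraries, written by software version 3.0.0. Cell Ranger and the mm10 build are named in the submitters' processing notes, and the annotation is not given in the sources used here. The feature and barcode files hold names only, per the file headers and contents.

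Barcodes were kept with at least 500 genes and at most 10% mitochondrial UMIs, and simulated-doublet scores removed 75 to 388 per library (0.8% per 1000 listed). T and NK gates also allowed at most 1 UMI of B and myeloid genes. The 4 genes, the companion lists and the gates were chosen with earlier results of these data known. Genes were named by rule: the 4 members, the companion lists and the 5 genes most like each member. Sums were scaled to CPM. Ratios have exact conditional binomial and levels exact Poisson 95% intervals. Only the ratio intervals were checked, on simulated Poisson sums, which lack the clumping of UMIs within barcodes and so cannot test its effect. With 1 library a group no test was made. Shares used thinning to 1000 UMIs. A count of 0 has a floor of 3 counts. A percent past the fold covers genes with at least 50 UMIs over both sides of the comparison, and lists those with at least 20. Alternatives included edgeR 4.0.16 TMM sizes and DESeq2 1.42.0 size factors. Work used Python 3.11.15, numpy 2.4.6, scipy 1.17.1 and R 4.3.3. Results that need certain genes, including 1 alternative setting of the T gates, are not reported here.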

Additional observations from a re-analysis of the deposited data

Results flagged for a closer look

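In several cases a gene had a CD4-Cre over control log2 ratio of opposite sign in 2 gates, each with a counting interval that leaves out 0. The differences between gates were not tested, since each group is 1 library. In the pancreas, Ccl3 had 0.70 in CD8 barcodes against -0.40 in NK and -0.64 in CD4 barcodes, and Xcl1 had 0.21 in CD8 against -0.42 in NK and -0.41 in CD4 barcodes. Without the richest 5 barcodes of each library both CD8 values turned to -0.31, while the CD4 values turned to 1.03 for Ccl3 and 0.36 for Xcl1. Ccl5 had -0.84 in pancreas CD8 and 0.47 in node CD8 barcodes, which differ in age, tissue and selection together.

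Outside the T and NK gates, Ccl5 measured 12575 CPM in 51 node control barcodes and 15880 CPM in 21 node CD4-Cre barcodes with at least 2 UMIs over Lyz2, Csf1r, Cst3 and S100a8. They held 55% and 21.6% of all Ccl5 UMIs kept in those CD3-selected libraries. Barcodes with a UMI of Fscn1, a marker of migratory dendritic cells, were 33 of the 51 and 11 of the 21 and held 2068 of 2082 and 923 of 923 of these UMIs. In the pancreas the same gate measured 839 and 524 CPM.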

How the results depend on the processing

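No paired analysis was possible because each group is 1 library. The settings marked here as added were chosen after seeing the data. Of 132 alternative values for the 4 genes in the pancreas CD8 and NK gates, added settings included, 125 kept the sign and 95 stayed inside the counting interval of the reported value. In the CD8 gate, Ccl3 (0.70) turned to -0.31 without the 5 richest barcodes, to -1.76 without Trbv15 and to -1.23 without Trbv15 and Trbv13-3 (both added), and moved to 0.07 with all barcodes, 0.10 without doublet removal, 0.24 with equal barcode weight and 1.88 without gamma-delta receptor UMIs. Ccl4 (-0.67) moved to -0.26 without gamma-delta UMIs, -0.87 without NK-gene UMIs (added), -1.04 with equal weight, -1.61 without Trbv15 and -1.66 without both segments (added). Ccl5 (-0.84) moved to -0.78 with doublet removal at 1.6% per 1000, -0.79 with all barcodes, -0.80 without doublet removal or NK-gene UMIs (added), -0.81 with a total without technical genes, -0.82 without H2-Ab1 barcodes (added), -0.92 with equal weight, -1.0 without gamma-delta UMIs, -1.23 without Trbv15 and -1.06 without both segments (added). Xcl1 (0.21) moved to -0.31 without the richest barcode (added) or the 5 richest, -0.66 with more doublets removed, -0.82 with equal weight, 0.68 without gamma-delta UMIs and 0.59 without both segments (added). In the NK gate, Ccl3 moved to -0.03 with no other-lineage UMI. Ccl4 moved to -0.60 without the 5 richest and -1.28 with the Ncr1 gate. Ccl5 moved to -0.36 with equal weight, -0.42 without the 5 richest, -0.45 without H2-Ab1 barcodes (added) and -0.52 with DESeq2 sizes, and Xcl1 to -0.24 and -0.25 without the 5 richest and with the Ncr1 gate. Of 142 alternative values in the pancreas CD4 and node gates, 130 kept the sign; those that turned a value past the fold were Ccl3 in pancreas CD4 barcodes (1.03 without the 5 richest, 0.18 without the richest, added) and Ccl5 in node CD4 barcodes (0.11 with 2 Cd4 UMIs). All 26 alternative values of the ratios between gates kept their sign. The cause of these moves was not tested. Counting depth limits Ccl3 in the nodes, where 3 UMIs were found in CD8 and none in CD4 barcodes.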

Other observations

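Much of the Xcl1 lay outside the CD4, CD8 and NK gates. Pancreas T barcodes with at least 2 Cd3 UMIs and neither Cd4 nor Cd8 UMIs numbered 904 in control and 1222 in CD4-Cre. Of these, 225 and 315 had a UMI of Ncr1, Klrb1c, Klre1 or Klri2, a split made after seeing the data. These NK gene-bearing T barcodes held 34.7% and 43.5% of all Xcl1 UMIs kept in their libraries, at 799 and 1007 CPM, and Xcl1 was detected in 77.3% and 87.6% of them. Their top 5 barcodes held 11.5% and 9.94% of it. Ccl5 was detected in 98.7% and 96.8% of them, at 12209 and 9443 CPM. The other 679 and 907 barcodes without Cd4 or Cd8 UMIs had 34 and 41 CPM of Xcl1. Ccl4 measured 369 and 346 CPM and Ccl3 52.5 and 78.3 CPM in the NK gene-bearing barcodes.

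Myeloid barcodes (at least 2 UMIs over Lyz2, Csf1r, Cst3 and S100a8) were also counted outside the T, NK and B gates. They held 31.5% of the Ccl3 UMIs kept in pancreas control and 12.5% in pancreas CD4-Cre. Their shares were 8.56% and 6.01% for Ccl4, 4.28% and 2.5% for Ccl5, and 0.285% and 0.597% for Xcl1. Ccl3 was thus the member with the largest myeloid share in both libraries. These shares depend on how many barcodes of each kind a library holds, and the difference between libraries was not tested.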
